A study of Apis mellifera with 6 samples.

Results

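The 100 genes described here differed most between individual bees of the same treatment group in the honey bee (Apis mellifera) midgut. They were selected on their spread, so the spread itself is a description and is not tested. Of 10041 genes listed, 7158 had a mean normalised read count of 100 to 10000 over the 6 libraries, and in 4634 of these the values of the halofuginone and DMSO groups overlapped. After 20 genes of named families were set aside, 4614 genes were left to choose from. For each, the standard deviation (SD) of log2(normalised read count + 1) was taken within each group, and the 100 genes with the largest value of the smaller SD were chosen. A gene could enter only when bees differed in both groups.

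Halofuginone-fed bees received 200 µM halofuginone, dissolved in DMSO, in sucrose solution for 24 h. Control bees received sucrose with the same DMSO (0.5%) for 24 h. All were adults collected at the landing boards of outbred colonies that carry the usual North American mix of subspecies, and the bees of one experiment shared a colony. The sources used here do not state their ages. Each group held 3 libraries, halofuginone 2, 3 and 4 and DMSO 1, 2 and 3, and each library came from 1 midgut, so the spread within a group is the spread between single bees together with that of dissection and library preparation, which cannot be told apart.

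The midgut is the organ in which bees digest and absorb food, and a dissected midgut also holds visceral muscle, nerve endings, tracheae and whatever the bee had eaten. Halofuginone inhibits the enzyme that loads proline onto its tRNA and so activates the integrated stress response, in which cells lower general protein synthesis. In an outbred colony workers descend from one queen and several drones. Bees at the hive entrance differ in father, age and task, none of which the sources used here state for these bees. In bulk tissue, fewer cells of a type and less RNA per cell cannot be told apart.

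Read totals were 23305398 to 26278866 per library, and 6 to 15 of the listed genes had no read in a given library. Halofuginone 3 and DMSO 1 stood apart within their groups. DMSO 1 held the highest or the lowest value of its group for 85 of the 100 genes, against 86.0% of the other 4514 genes chosen from, and halofuginone 3 did so for 79, against 77.2%. The members share these extremes with the genes they were chosen from. Among 3 libraries every gene has a highest and a lowest one, so each library holds many extremes. DMSO 2 was highest for 41 members and lowest for 28, and DMSO 3 for 22 and 24. Halofuginone 2 was highest for 27 members and lowest for 31, and halofuginone 4 for 38 and 25. The members' spread in DMSO rests much on DMSO 1: their median SD there was 1.05 with all 3 libraries and 0.473 without DMSO 1. In halofuginone it was 1.11 with all 3 libraries and 0.854 without halofuginone 3. When the rule was run again without DMSO 1 it returned 38 of the 100 genes, without halofuginone 3 it returned 57, and without both it returned 28.

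The members varied several-fold from bee to bee in each group. Their SD within the halofuginone group was 0.75 to 6.51 (median 1.11) on the log2 scale, against a median of 0.21 for the other genes chosen from, and their SD within the DMSO group was 0.75 to 5.29 (median 1.05), against 0.21. The highest library exceeded the lowest by a median of 4.41-fold in halofuginone and 3.91-fold in DMSO, and by 1.32-fold and 1.33-fold for the other genes chosen from. In 38 members both SDs were above 1. The SD that read counting alone would give was a median of 0.114 in halofuginone and 0.108 in DMSO, and in 100 of 100 members both SDs exceeded 2 times that value. The same held for 60.3% of the other genes chosen from, a contrast that the rule largely sets, since it took the largest SDs.

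**Figure D1:**
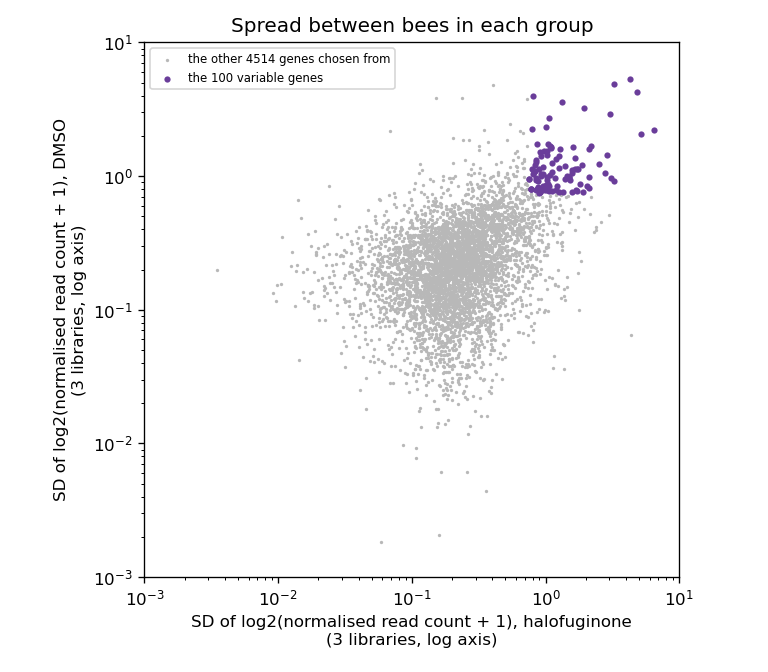
SD of log2(normalised read count + 1) over the 3 halofuginone libraries (x axis) and over the 3 DMSO libraries (y axis), both on log axes, 1 point per gene, with the 100 members in purple and the other 4514 genes chosen from in grey. The members fill the corner above 0.745 on both axes because the rule placed them there, and many grey genes lie high on 1 axis only.

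Genes that were variable in one group tended to be variable in the other. The SDs of the 2 groups had a Spearman correlation of 0.35 across the 4614 genes, which share their libraries, their abundance and their counting error and are not independent replicates. Of the 100 genes with the largest SD in halofuginone, 26 (26.0%) were also among the 100 with the largest SD in DMSO, where 2.17% of the genes chosen from belong to each list. Of the 461 genes with the largest SD in each group (9.99% of those chosen from) 187 were shared, or 40.6% of each list. The members were less abundant, with a median mean count of 329 against 577 for the other genes. The part of abundance in the overlap was not tested. When each SD was taken above a running median over genes of like abundance, 91 of the 100 members were chosen again.

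By construction the members do not separate the groups. None of the 100 was called in the comparison of halofuginone with DMSO by limma (adjusted p below 0.05 and absolute log2 fold change above 1), where 2.37% of all listed genes were called, and nothing is read from that count because the rule required the groups to overlap. At an unadjusted p below 0.05 limma counted 1 member, LOC102656066, and 23.7% of all listed genes. It had 749, 1960 and 573 normalised counts in halofuginone 2, 3 and 4, against 150, 601 and 215 in DMSO 1, 2 and 3. The halofuginone bees were the higher ones but for halofuginone 4, which lay below DMSO 2, and the log2 fold change was 1.81 ± 0.61 (SE, adjusted p = 0.129). On the recovered reads, edgeR's quasi-likelihood test called 0 members and 2.36% of all listed genes, with 6 members and 24.2% of all at an unadjusted p below 0.05. DESeq2's Wald test called 5 members (LOC100578392, LOC100578727, LOC102655889, LOC102656066 and LOC408473) and 3.83% of all listed genes, so its count was near the share over all genes.

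Some members were nearly silent in one bee and well expressed in another bee of the same group. In 9 members a library under 10 normalised counts stood beside a library over 100 of the same group, in 8 of them in halofuginone and in 5 in DMSO. In 4 members this happened in both groups. Among the other 4514 genes it happened in 5 genes (LOC100576440, LOC551993, LOC102656916, LOC727464 and LOC107965774), and in 0 in both groups. That 0 is fixed by the rule, since such a gap in both groups puts both SDs past the limit of the list, so these counts are a description. The 4 genes low in both groups are LOC412162, LOC550937, LOC100576880 and LOC107965350. LOC550937 has no entry in the RefSeq gene table used. LOC412162 is protein coding, and LOC100576880 and LOC107965350 are long non-coding RNAs (lncRNAs), transcripts with no recognised protein.

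LOC412162 had 3.90, 885 and 824 normalised counts in halofuginone 2, 3 and 4, against 787, 0.987 and 0 in DMSO 1, 2 and 3. Behind these values were 4, 1031 and 764 reads in the halofuginone bees, against 739, 1 and 0 reads in the DMSO bees. Levels of 787 to 885 occurred in 3 bees and of at most 3.90 in the other 3, and each group held bees of both kinds. These gaps are far beyond counting error, since a count of 0 allows up to 3 reads per library.

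LOC550937 had 208, 513 and 0 normalised counts in halofuginone 2, 3 and 4, against 0, 156 and 183 in DMSO 1, 2 and 3. No read fell on it in 1 halofuginone bee and 1 DMSO bee, and every other bee had at least 158 reads. LOC100576880 had 479, 254 and 6.47 normalised counts in halofuginone 2, 3 and 4, against 700, 0.987 and 633 in DMSO 1, 2 and 3. One bee of each group, halofuginone 4 and DMSO 2, was nearly silent for it. LOC107965350 was graded in place of on or off, with 5.86, 159 and 386 normalised counts in halofuginone 2, 3 and 4, against 8.52, 204 and 409 in DMSO 1, 2 and 3. Its span overlaps that of LOC411812 in the gene table. The bees that were low for these 4 genes were not the same bees: each of the 6 libraries except halofuginone 3 was under 10 for at least 1 of them.

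**Figure D2:**
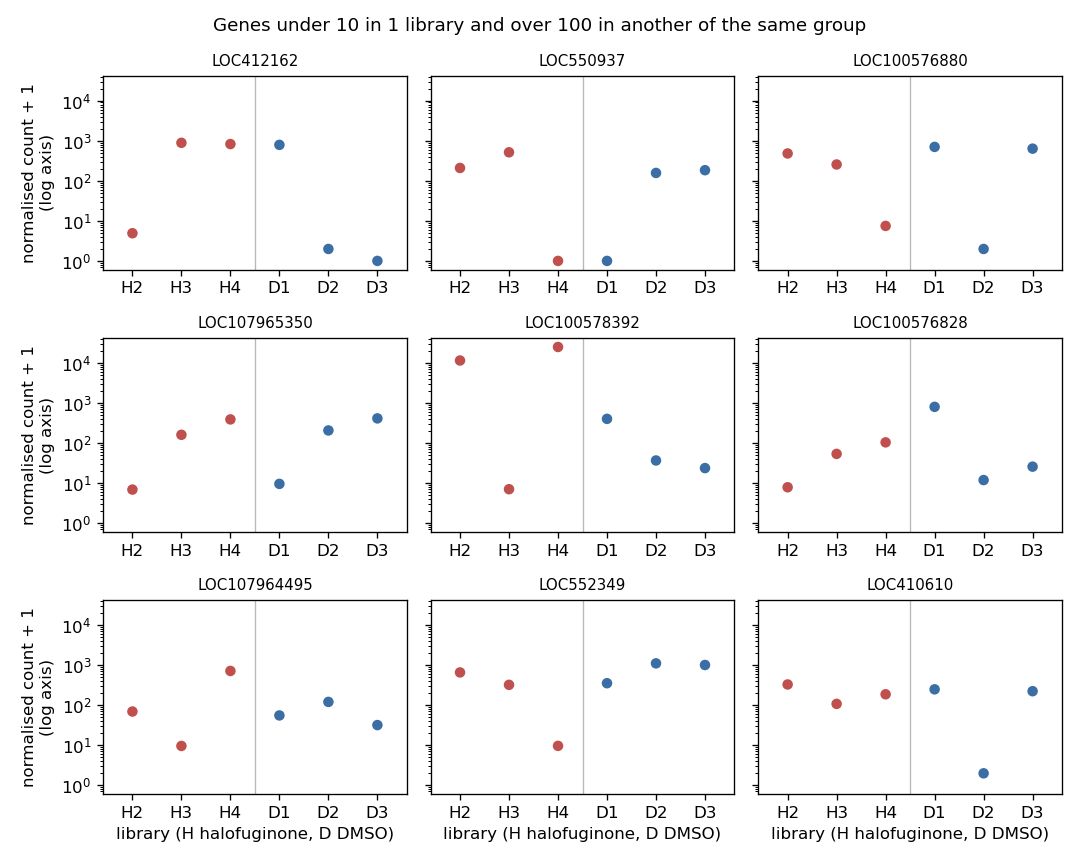
Normalised read count + 1 (log axis) of the 9 members with a library under 10 beside one over 100 in the same group, 1 point per library, halofuginone 2, 3 and 4 in red left of the line and DMSO 1, 2 and 3 in blue right of it. The 3 DMSO libraries of LOC412162 had 787, 0.987 and 0 normalised counts, and different libraries are low in different genes.

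The widest range of any member belonged to LOC100578392, which is not in the gene table. It had 11427, 6.01 and 24856 normalised counts in halofuginone 2, 3 and 4, against 398, 35.5 and 22.6 in DMSO 1, 2 and 3. In halofuginone 4 it was among the abundant transcripts, whereas halofuginone 3 lay below every DMSO bee, which is why the groups overlapped. By limma on all 6 libraries its log2 fold change was 4.17 ± 2.97 (SE, adjusted p = 0.444), and both DESeq2 (log2 fold change 6.31) and limma without halofuginone 3 (7.91) called it.

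LOC727243, a protein-coding gene and the most abundant member on average, had 24.4, 1128 and 31437 normalised counts in halofuginone 2, 3 and 4, against 997, 16328 and 6798 in DMSO 1, 2 and 3. The lowest and the highest of its 6 values were both in halofuginone-fed bees. LOC100576828 had 6.83, 52.4 and 102 normalised counts in halofuginone 2, 3 and 4, against 796, 10.9 and 24.6 in DMSO 1, 2 and 3. Here a single bee, DMSO 1, stood far above the rest.

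LOC408807 had 37.1, 669 and 65.8 normalised counts in halofuginone 2, 3 and 4, against 35.1, 39.5 and 4.10 in DMSO 1, 2 and 3. A single halofuginone bee was high and a single DMSO bee was low. LOC724900 had 52.7, 47.2 and 343 normalised counts in halofuginone 2, 3 and 4, against 134, 36.5 and 362 in DMSO 1, 2 and 3. It was high in 1 bee of each group (343 in halofuginone 4 and 362 in DMSO 3), and LOC410988, which is not in the gene table, was low in 1 bee of each, with 222, 155 and 14.02 normalised counts in halofuginone 2, 3 and 4, against 38.3, 349 and 140 in DMSO 1, 2 and 3.

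The remaining near-silent members carried the drop in 1 bee. LOC552349 had 654, 320 and 8.63 normalised counts in halofuginone 2, 3 and 4, against 351, 1104 and 1004 in DMSO 1, 2 and 3. LOC410610 had 327, 106 and 186 normalised counts in halofuginone 2, 3 and 4, against 247, 0.987 and 222 in DMSO 1, 2 and 3. A single read was counted for it in DMSO 2, where the other 5 bees had at least 124. LOC552349 and LOC410610 lie outside the rule for named genes and were picked after their values were seen. The same holds for LOC102656066, described above for its limma p-value.

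The largest share of members had their extremes in halofuginone 3 and DMSO 1. Of the 100 genes, 22 were highest in both of these libraries and 25 were lowest in both. Among the other genes chosen from, 23.2% were highest in both and 18.1% lowest in both, so the paired extreme is shared by the midgut genes at large. Members were more often highest in halofuginone 4 with DMSO 2 (18 genes, 10.8% of the others) and in halofuginone 2 with DMSO 2 (16 genes, 9.28%), and less often in halofuginone 4 with DMSO 1 (11 genes, 15.3%). These shares are given side by side without a test, since genes of the same libraries are not independent.

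**Figure D3:**
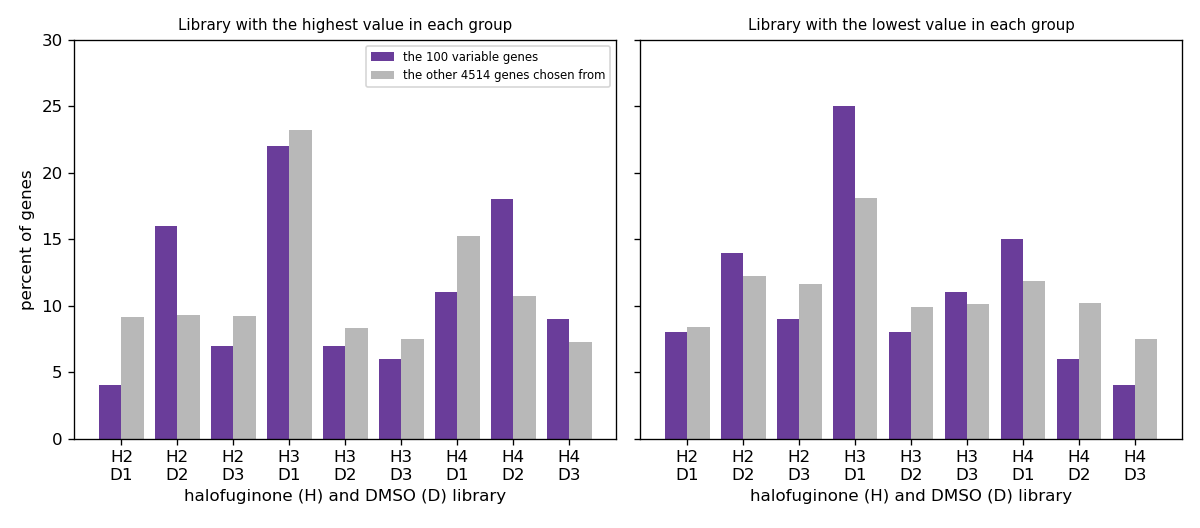
Percent of genes (y axis) whose highest (left) or lowest (right) value fell in each combination of a halofuginone library (H2 to H4) and a DMSO library (D1 to D3), with the 100 members in purple and the other 4514 genes chosen from in grey. The combination of halofuginone 3 with DMSO 1 has the tallest bars in both panels, 22% and 25% of the members.

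The 22 genes that were highest in both lay a median of 1.04 above the group mean in halofuginone 3 and 1.24 above it in DMSO 1, on the log2 scale. They include both members with a gene name. Nrx-1 is the honey bee neurexin, an adhesion protein of the presynaptic membrane of nerve cells. It had 16.6, 173 and 64.7 normalised counts in halofuginone 2, 3 and 4, against 271, 65.1 and 73.9 in DMSO 1, 2 and 3. Obp9 belongs to the odorant-binding proteins, small secreted carriers of hydrophobic molecules found in antennae and in other tissues. It had 188, 604 and 164 normalised counts in halofuginone 2, 3 and 4, against 2019, 287 and 352 in DMSO 1, 2 and 3. DMSO 1 exceeded the other 5 bees for both genes, and halofuginone 3 was the highest of its group.

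Nrx-1 and Obp9 were each the only member on their marker list. The 9 listed genes of nerve cells, synaptotagmins, nicotinic receptor subunits, bruchpilot and neuroligin among them, summed to 792 to 928 normalised counts in the halofuginone libraries and to 976 to 1042 in the DMSO libraries. Without Nrx-1 the other 8 genes summed to 912, 739 and 727 in halofuginone 2, 3 and 4, against 771, 911 and 908 in DMSO 1, 2 and 3. Among the DMSO bees their sum was lowest in DMSO 1, where Nrx-1 was highest. Syt1, nAChRa8, nAChRa3, nAChRa2, brp and NLG-3 were each lowest of the group in DMSO 1. Syt20 and nAChRa9 were highest there, with 199 and 83.1 normalised counts. In halofuginone 3 nAChRa9 was also the highest of its group, by little (71.3, against 70.3 in halofuginone 2). The 14 listed chemosensory genes summed to 53078 to 71063 normalised counts in halofuginone and to 25128 to 39179 in DMSO, nearly all of it from CSP3, a chemosensory protein gene. Without CSP3 and Obp9 the other 12 genes summed to 929, 788 and 1011 in halofuginone 2, 3 and 4, against 891, 1527 and 1292 in DMSO 1, 2 and 3. The sum of these 12 genes was lowest in halofuginone 3 and in DMSO 1, where Obp9 was highest. Of the 14 listed genes, 3 were lowest in both libraries. Obp13, among the 12, peaked in both, as Obp9 did. It had 28.3 normalised counts in halofuginone 3 and 89.5 in DMSO 1.

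The 25 genes that were lowest in both lay a median of 1.19 below the group mean in halofuginone 3 and 1.11 below it in DMSO 1, on the log2 scale. They were more abundant than the members as a whole, with a median mean count of 503, and 9 of them had a mean of at least 1000. LOC412969 had 391, 54.9 and 1770 normalised counts in halofuginone 2, 3 and 4, against 95.9, 525 and 180 in DMSO 1, 2 and 3. LOC102655594, an lncRNA, had 1482, 155 and 2416 normalised counts in halofuginone 2, 3 and 4, against 797, 2930 and 1103 in DMSO 1, 2 and 3. In both genes halofuginone 3 was the lowest of the 6 bees.

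Muscle markers moved the same way as these 25 genes. The 7 listed troponin genes, which encode the calcium switch of muscle contraction, summed to 7083, 4750 and 8532 normalised counts in halofuginone 2, 3 and 4, against 5340, 8916 and 7466 in DMSO 1, 2 and 3. The sum was lowest in halofuginone 3 and in DMSO 1, by 0.47 and 0.41 below the group mean on the log2 scale. Of the 7 genes, 4 were lowest in both. The sums of the fat body and haemolymph list and of the 12 chemosensory genes without CSP3 and Obp9 were also lowest in these libraries. Divided by the troponin sum, the median SD of the 25 genes was 0.833 in halofuginone, against 1.17 undivided, and 0.662 in DMSO, against 0.981. A decrease was largely fixed in advance, because the 25 genes were picked as lowest in the same libraries in which the troponin sum was lowest. Nothing is read from it, and the part of muscle content in their spread was not tested. The median drop of the 25 genes was more than 2 times that of the troponin sum on the log2 scale in both libraries. Nothing is read from that either, since the 25 genes were chosen for a large spread and as lowest there.

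**Figure D4:**
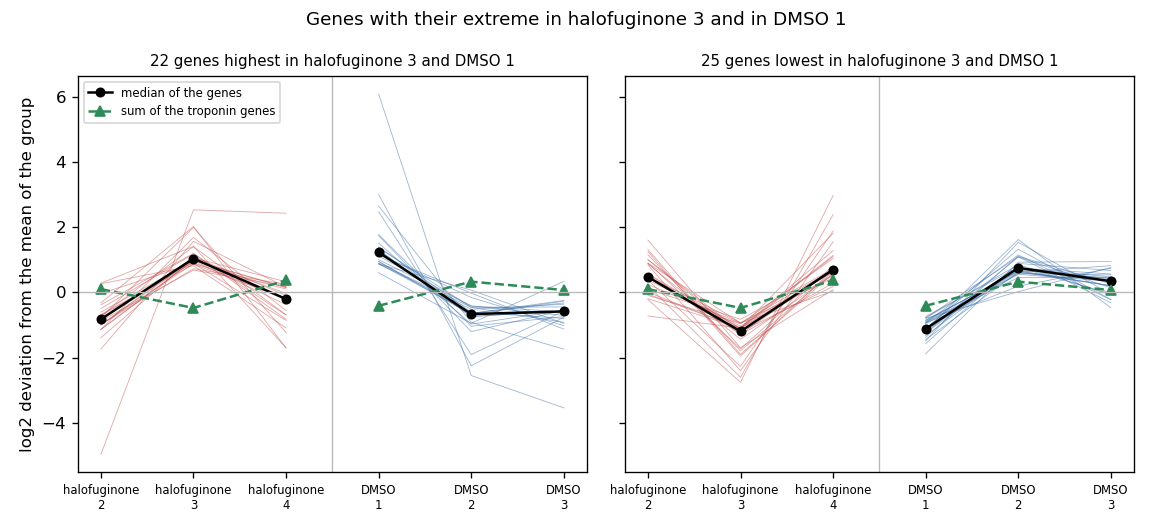
log2 deviation of each gene from its group mean (y axis) in the 6 libraries for the 22 members highest in both halofuginone 3 and DMSO 1 (left) and the 25 lowest in both (right), thin lines for genes, black points for their median and green triangles for the summed troponin genes. The troponin sum lies 0.47 and 0.41 below the group mean in halofuginone 3 and DMSO 1 and moves against the genes on the left and with those on the right, over a smaller range.

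Too few markers of other tissues were among the genes chosen from for their absence to be read. Of the 6 listed genes of fat body and haemolymph, the vitellogenin and hexamerin storage proteins among them, 2 were among the genes chosen from and 0 were members, where 2.17% of those chosen from became members. Their sum was 793, 515 and 533 normalised counts in halofuginone 2, 3 and 4, against 801, 1036 and 884 in DMSO 1, 2 and 3. Like the troponin sum it was lowest in halofuginone 3 and in DMSO 1, and 2 of the 6 genes were lowest in both. The 2 major royal jelly protein genes listed for the hypopharyngeal gland, Mrjp7 and Mrjp8, were both among the genes chosen from and 0 were members. Their sums were 1562 to 2577 in halofuginone and 1622 to 3140 in DMSO. Vitellogenin (Vg), itself too low to be eligible, had 8.78, 2.58 and 28.05 normalised counts in halofuginone 2, 3 and 4, against 6.39, 102 and 15.4 in DMSO 1, 2 and 3. Hbg2, an alpha-glucosidase gene on the list of digestive enzymes, had 598976 to 678642 normalised counts in halofuginone and 546506 to 935502 in DMSO.

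Long non-coding RNAs took a larger share of the members than of the genes they were chosen from, a feature that the rule did not use. Of the 88 members found in the RefSeq gene table, 18 (20.5%) are annotated as lncRNA, against 164 of 4340 (3.78%) of the others. The shares were also taken within levels of abundance. With a mean under 500 it was 15 of 55 members (27.3%) against 6.70% of the others, and with a mean of 500 or more it was 3 of 33 (9.09%) against 1.45%. The share stayed between 15.1% and 23.2% when the rule was run without each library in turn, and it was 20.0% without both halofuginone 3 and DMSO 1. No test was made over genes. Members were also less often found in the table (88%) than the others (96.1%), and the table belongs to a later assembly than the one the reads were mapped to.

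Besides LOC100576880 and LOC107965350, the lncRNA members include LOC107964323. It had 308, 266 and 35.6 normalised counts in halofuginone 2, 3 and 4, against 104, 40.4 and 196 in DMSO 1, 2 and 3. One bee in each group was low, halofuginone 4 and DMSO 2, the same bees that were nearly silent for LOC100576880. Its span overlaps that of LOC408803, so reads of the 2 genes may have been split or shared where the counting did not use strand, which the sources used here do not give. Spans of 29 of the 87 members placed in the gene order overlap another listed gene (33.3%), close to the 33.5% of the others.

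Several members lie next to each other in the genome, and most of these pairs peaked in the same bees. Among the 87 placed members, 8 pairs (16 genes) had no other listed gene between them. In 6 of the 8 pairs (75%) both genes were highest in the same halofuginone bee and in the same DMSO bee, against 17.7% of the 2233 other neighbouring pairs of genes chosen from. Both genes were lowest in the same bees in 3 of the 8 pairs (37.5%), against 17.4%. Within 5 places the count of shared peaks was 6 of 15 pairs (40%) against 16.1%, and these were the same 6 neighbouring pairs. None of the 15 pairs that was farther apart shared its peaks in both groups, and pairs beyond 5 places were not counted. Without halofuginone 3 and DMSO 1, both remaining bees of each group stood in the same order in 4 of 8 pairs (50%), against 28.6% of the other pairs, and within 5 places in 4 of 15 pairs (26.7%), against 26.6%. The 8 pairs were not tested, because members were chosen for their spread and neighbouring genes may overlap. Of the 18 lncRNA members 8 stand in such a pair, and 6 of the 8 pairs hold at least 1 lncRNA.

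LOC102655073 and LOC726542, both protein coding, are one of these pairs. LOC102655073 had 174, 637 and 371 normalised counts in halofuginone 2, 3 and 4, against 775, 268 and 354 in DMSO 1, 2 and 3. LOC726542 had 256, 745 and 359 normalised counts in halofuginone 2, 3 and 4, against 988, 240 and 269 in DMSO 1, 2 and 3. Both genes put all 6 bees in the same order within each group.

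LOC102655223, an lncRNA, and LOC413270, a protein-coding gene, are neighbours with another order of bees. LOC102655223 had 288, 138 and 68.0 normalised counts in halofuginone 2, 3 and 4, against 72.4, 190 and 277 in DMSO 1, 2 and 3. LOC413270 had 600.3, 286 and 93.8 normalised counts in halofuginone 2, 3 and 4, against 204, 468 and 545 in DMSO 1, 2 and 3. Halofuginone 4 and DMSO 1 were low for both. The span of LOC102655223 also overlaps LOC409847.

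LOC412969, described above, is the neighbour of LOC107964495, an lncRNA with 68.3, 8.58 and 712 normalised counts in halofuginone 2, 3 and 4, against 54.3, 119 and 30.8 in DMSO 1, 2 and 3. Halofuginone 4 exceeded halofuginone 3 for both by a wide margin, and DMSO 2 was the highest DMSO bee for both. LOC102655594 is the neighbour of LOC551320, which had 93.7, 78.1 and 228 normalised counts in halofuginone 2, 3 and 4, against 159, 324 and 71.8 in DMSO 1, 2 and 3. These were also highest in halofuginone 4 and DMSO 2, with a narrower range for LOC551320.

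The lncRNAs LOC102654124 and LOC102654388 form a pair that was highest in halofuginone 3 and DMSO 1. LOC102654124 had 44.9, 310 and 32.4 normalised counts in halofuginone 2, 3 and 4, against 171, 76.0 and 34.9 in DMSO 1, 2 and 3, and LOC102654388 had 110, 486 and 113 in halofuginone 2, 3 and 4, against 135, 44.4 and 55.4 in DMSO 1, 2 and 3. Nrx-1 is the neighbour of LOC102655788, a protein-coding gene whose span overlaps its own, with 1401, 9927 and 2088 normalised counts in halofuginone 2, 3 and 4, against 9183, 3178 and 2596 in DMSO 1, 2 and 3. LOC102655788 had the higher counts in all 6 bees, and reads from it may have been counted to Nrx-1, which was not tested.

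In the other 2 pairs the highest bee differed in at least 1 group. The lncRNAs LOC102655539 and LOC102655582 both overlap LOC410649. LOC102655539 had 194, 235 and 71.2 normalised counts in halofuginone 2, 3 and 4, against 71.4, 440.0 and 342 in DMSO 1, 2 and 3, and LOC102655582 had 116, 108 and 38.8 in halofuginone 2, 3 and 4, against 24.5, 195 and 210.4 in DMSO 1, 2 and 3. Both were lowest in halofuginone 4 and DMSO 1. LOC107965582, an lncRNA, had 81.0, 344 and 105 normalised counts in halofuginone 2, 3 and 4, against 46.9, 282 and 396 in DMSO 1, 2 and 3, and its neighbour LOC552257 had 356, 742 and 180 in halofuginone 2, 3 and 4, against 462, 1667 and 789 in DMSO 1, 2 and 3.

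**Figure D5:**
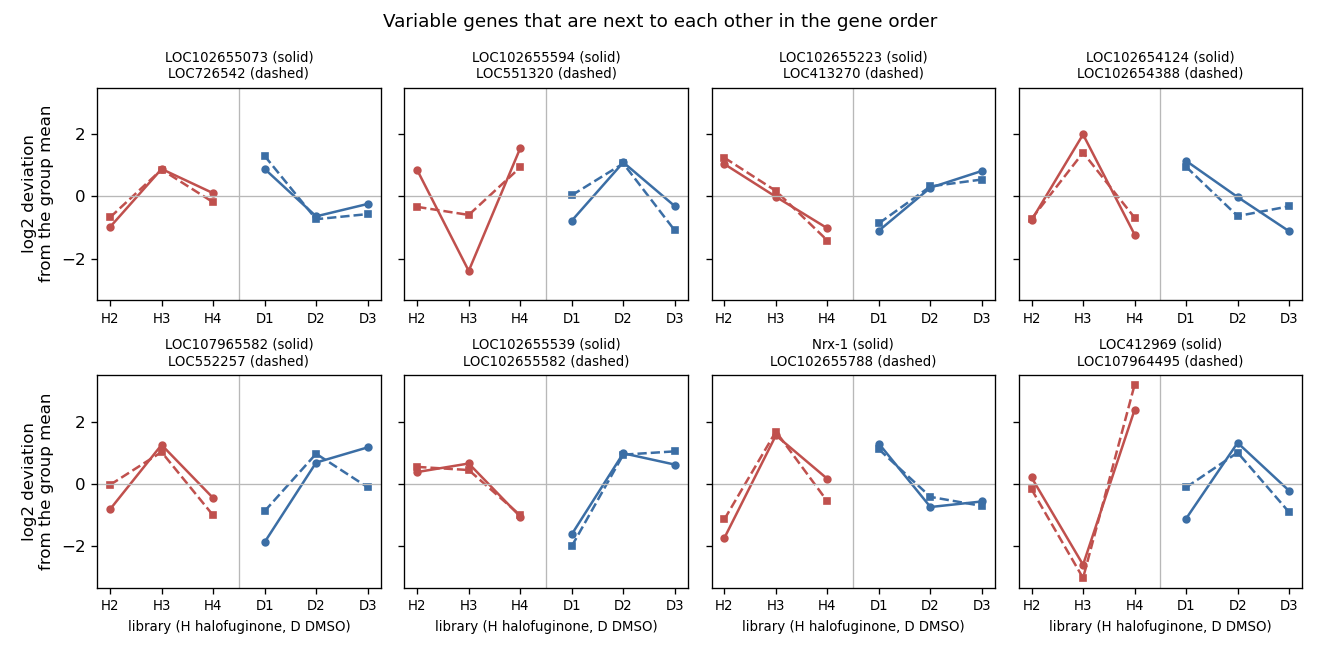
log2 deviation from the group mean (y axis) in the 6 libraries for the 8 pairs of members that are next to each other in the gene order, 1 panel per pair, solid circles for the first gene and dashed squares for the second, halofuginone in red left of the line and DMSO in blue right of it. In 6 of the 8 pairs both genes peak in the same library of each group.

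At the lower end of abundance, LOC413185 had 67.3, 165 and 53.9 normalised counts in halofuginone 2, 3 and 4, against 47.9, 159 and 150 in DMSO 1, 2 and 3. LOC724852 had 93.7, 48.9 and 145 normalised counts in halofuginone 2, 3 and 4, against 59.6, 157 and 158 in DMSO 1, 2 and 3. At the upper end, LOC102653935 had 5449, 2805 and 8960 normalised counts in halofuginone 2, 3 and 4, against 6858, 11538 and 2623 in DMSO 1, 2 and 3. Its counting SD was 0.020 in halofuginone, the smallest of any member, and its SD in that group was 0.84.

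The limit of the list cuts through a continuous range. The last members were LOC550918, LOC410793 and LOC551988, with a smaller SD of 0.753, 0.747 and 0.745. The first genes left out were LOC102656575, LOC724993 and LOC100576435, with 0.745, 0.743 and 0.741. LOC724993, outside by a little, had an SD of 1.92 in halofuginone, where halofuginone 3 stood at 746 normalised counts and the other 2 bees at 67.3 and 82.0.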

How the data were processed

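The submitters' processing notes name Trimmomatic (0.36), STAR, Subread and DESeq2, and the study's methods give NEBNext Ultra libraries, paired reads and mapping to the Amel 4.5 assembly. The 3 deposited tables hold a normalised signal: as the values show, the authors scaled the reads of each gene by 1 size factor for each library. All columns were used (0 left unused). Dividing by the value of 1 read returned whole reads for 100% of the values in each library (tolerance 0.01), with size factors of 0.927 to 1.16. All 10041 genes entered limma (3.58.1, R 4.3.3) on log2(value + 1) with a variance trend and group as the only term, which called 238 genes. On the recovered reads edgeR (4.0.16) called 237 genes. DESeq2 (1.42.0) was a further alternative. Fold changes on this scale understate changes of low genes. The p-values set the difference between group means against the spread between these libraries, and counting SDs cover counting error only.

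The members and lists were chosen with earlier results of these data known. The 20 genes set aside by name belong to heat shock, ribosomal protein, troponin, cytochrome P450, immune, antioxidant, tRNA and microRNA families. Named genes were the 10 members with the largest smaller SD, members with a symbol other than LOC or on a marker list, the 3 most and 3 least abundant, the 3 with the largest SD in each group, the leading member of each combination of highest libraries, neighbours in the gene order, and the 3 on each side of the limit. Marker lists were matched by symbol. Of the lists not described above, digestive enzymes (3 genes, 1 of them eligible), hormone and nutrition signalling (8, 2 eligible), clock genes (3, 2 eligible) and mitochondrial genes (5, all eligible) held 0 members, and the last matched only nuclear-encoded subunits, while Cryl1 and SPG11 entered by their first letters. The gene table (RefSeq, Amel_HAv3.1) matched 9225 of 10041 symbols, 88 of them members. It served for gene type and order only, no coordinates are printed, and it holds no gene descriptions. Sequence motifs were not used here. Python 3.11.15 with numpy 2.4.6, pandas 2.3.3 and matplotlib 3.10.9 was used. The steps were tested on simulated data. The alternatives were other pseudocounts, scalings, windows and measures of spread, the count tests, a low-count filter, blocks, and leaving out libraries. Of these, leaving out halofuginone 3 and DMSO 1 together, and the lncRNA share under each setting, were added after seeing the data.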

Additional observations from a re-analysis of the deposited data

How the results depend on the processing

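Over all genes, limma called 238 genes, DESeq2 called 385, and leaving out 1 library gave 47 (without DMSO 3) to 277 (without DMSO 1), with 63 without DMSO 2 and 126 without halofuginone 4. With replicates 2 and 3 alone, the replicate block left 3 calls, against 203 without it, and the deposited table as a block left 7. The correlations of deviations between same-numbered bees were 0.07 and -0.03. Whether bees were paired in handling cannot be read from these values. No correlation was computed between bees that share a deposited table, which carry different numbers. The members called were 5 by DESeq2 and 0 to 2 with 1 library left out. The rule returned 38 to 82 of the 100 members with 1 library left out, 28 without both halofuginone 3 and DMSO 1, 61 with a mean of 50 to 20000, 53 with the larger SD in place of the smaller, and 86 to 99 with the other scalings, pseudocounts and measures of spread. Without 1 library the median SD of the members was 0.854 to 1.21 in halofuginone and 0.473 to 1.26 in DMSO, where it was also 0.473 without both. The lncRNA share was 33.7% with a mean of 50 to 20000, and 19.8% to 22.2% with the other scalings, pseudocounts and measures of spread. The smaller SDs of the named genes moved by less than their error in 148 of 148 values under pseudocounts and scalings, and in 172 of 222 with 1 library left out. The error was the relative standard error of an SD from 3 values, which is a wide limit. Leaving out a library of the group with the larger SD often cannot change the smaller SD. Part of the 172 was therefore fixed in advance. With 3 bees per group an SD is itself known only roughly. The choice of protein motifs was not run.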
